A study of Arabidopsis thaliana with 12 samples.

Results

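The comparison described here is between unstressed seedlings of Arabidopsis thaliana labelled hd2b hd2c and wild type (WT), across all genes of the count table. It uses the 3 WT and the 3 hd2b hd2c libraries that were kept at 22 °C, which are 6 of the 12 RNA-seq libraries of the series, and they were chosen by their labels. Seedlings of both genotypes were grown for 6 days on sugar-containing agar in long days, and the labels give the tissue as seedling, so root and shoot may be mixed in each library. The other 6 libraries hold the same 2 genotypes after 3 h at 44 °C and show how the genes named below behaved in other samples. They were also part of the single fit over all 12 libraries. Every SE, adjusted p and call at 22 °C therefore depends on them as well. The labels name the mutated genes but not the alleles. They do not say whether replicates are separate cultures, and p-values then measure only how far these libraries spread, which may be technical.

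HD2 proteins are a plant-specific class of histone deacetylases. They remove acetyl groups from histone tails, a step usually linked to lower transcription, and several of them lie in the nucleolus, where they act in silencing of ribosomal RNA genes. HD2 proteins have also been linked to responses to abscisic acid, cold, salt and heat.

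The 6 libraries held between 10443494 and 22083518 gene counts, with the fewest in WT replicate 2. Ribosomal RNA took 0.988% to 5.02% of the counts, again highest in WT replicate 2. Of 33330 features, 20232 were tested. Levels are counts relative to library size in the usual CPM unit, with library sizes scaled by edgeR's TMM method, and are not divided by gene length, so they compare libraries and not genes. Counting was not stated to use strand, so values of overlapping, antisense or near-identical genes are uncertain.

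The targeted genes did not both follow the label. HD2B (AT5G22650, chromosome 5) stood at 40.3, 42.9 and 36.9 CPM in WT replicates 1 to 3 and at 21.68, 22.8 and 26.9 CPM in the libraries labelled hd2b hd2c. The groups did not overlap, and HD2B fell by 0.75 on the log2 scale (SE 0.133, adjusted p 0.00203, edgeR quasi-likelihood test with Benjamini-Hochberg adjustment over all genes tested, as for every adjusted p below). HD2C (AT5G03740, chromosome 5) stood at 39.8, 37.0 and 35.02 CPM in WT and at 106, 94.2 and 94.0 CPM in the libraries labelled hd2b hd2c. All 3 labelled libraries were therefore above all 3 WT libraries for a gene named in the genotype, and HD2C rose by 1.395 on the log2 scale (SE 0.114, adjusted p 7.87e-08). Both calls held when any 1 of the 6 libraries was left out. With libraries scaled by their totals alone, HD2B was at −0.69 and not called (adjusted p 0.396). Gene-level counts cannot tell a full transcript from a truncated one, and no protein was measured. The group is called the libraries labelled hd2b hd2c throughout, and every direction below rests on that label.

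The HD2 family has 4 genes. HD2A (AT3G44750) stood at 25.2, 25.7 and 20.7 CPM in WT and at 34.8, 35.3 and 39.5 CPM in the libraries labelled hd2b hd2c. The groups did not overlap and HD2A rose by 0.61 (SE 0.129, adjusted p 0.00806), though the adjusted p was 0.0695 without WT replicate 3 and also missed the threshold without hd2b hd2c replicate 3. HDT4 (AT2G27840), the fourth member, stood at 27.4 to 31.8 CPM in WT and 37.6 to 42.7 CPM in the libraries labelled hd2b hd2c. Its groups did not overlap either, but it was not called (0.47, SE 0.137, adjusted p 0.068). AGO4, an Argonaute protein of RNA-directed DNA methylation that the series also studied, was not called, with 72.7 to 88.6 CPM in WT and 60.1 to 75.8 CPM in the libraries labelled hd2b hd2c (−0.21, SE 0.145, adjusted p 0.609).

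**Figure D1:**
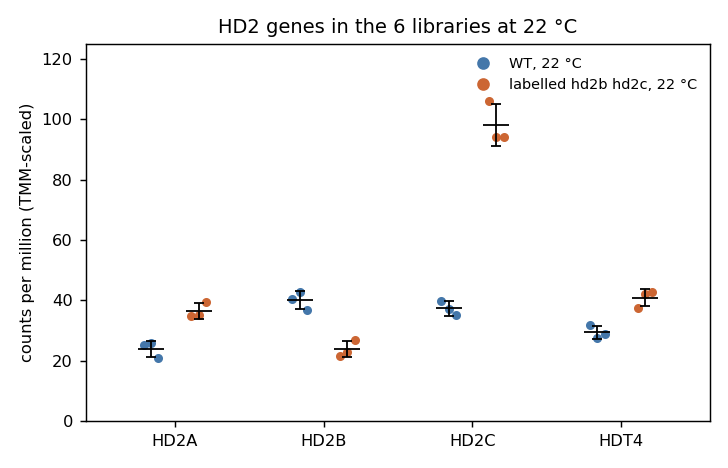
Levels (CPM) of the 4 HD2 genes in each of the 6 libraries at 22 °C; points are libraries and black bars the mean ± SD of 3. HD2B is lower, and HD2C, HD2A and HDT4 are higher, in all 3 libraries labelled hd2b hd2c than in all 3 WT libraries.

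Over all genes tested, 198 were called higher and 338 lower in the libraries labelled hd2b hd2c, which is 2.65% of the genes (0.979% higher and 1.67% lower). The median log2 fold change over all genes tested was 0, which TMM scaling favours. Of the called genes, 100 of the 198 higher and 106 of the 338 lower differed by at least 2-fold. All 3 libraries of one group lay above all 3 of the other for 197 of the genes called higher and 336 of the genes called lower, while over all genes tested, whatever their p, 11.7% were separated upward and 13.7% downward. A fit on the 6 libraries at 22 °C alone, which leaves out the more variable heat libraries, called 592 higher and 1063 lower. Scaled by library totals alone, 74 were called higher and 28 lower. Without WT replicate 2 the counts were 110 and 106, and without any other single library at 22 °C they ran from 101 to 151 higher and from 146 to 246 lower. The fit also holds the heat libraries, and without hd2b hd2c heat replicate 2 it called 408 higher and 653 lower at 22 °C.

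At the median, the genes that fell had longer and more purine-rich transcripts than all genes tested. The longest transcript in the TAIR10.1 annotation had a median of 2820 bases for genes called lower, 1427 for genes called higher and 1727 for all genes tested, and its median share of purines (A and G) was 54.3%, 49.9% and 50.7%. In the decile of genes richest in purine, 157 were called lower and 7 higher, and the median log2 fold change was −0.28. In the longest decile, 143 were called lower and 8 higher, with a median of −0.17. WT replicate 2, the library with the fewest counts and the most ribosomal RNA at 22 °C, was the highest of the 6 in the most purine-rich decile, at a median of 0.20 above the mean of the 6 libraries on a log2(CPM + 1) scale. With a trend over length and purine share removed from each library, an alternative added after the data were seen, 199 genes were called higher (0.984%) and 197 lower (0.974%). Of the genes called before, 175 of 198 higher and 148 of 338 lower were called again in the same direction. Those 148 had medians of 1764 bases and 52.5% purine, and the 190 lower genes not called again 3375 bases and 55.5%. Values with the trend removed are given below wherever they end a call.

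**Figure D2:**
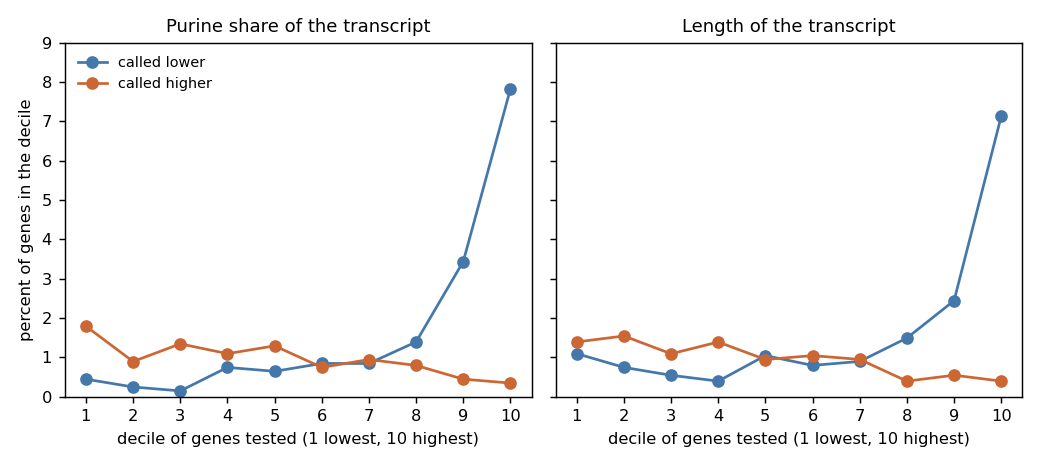
Percent of the genes in each decile of transcript purine share (left) and length (right) that were called lower or higher at 22 °C. The share called lower climbs to 7.82% in the most purine-rich decile and 7.13% in the longest, while the share called higher is 0.349% and 0.399% there.

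The increases with the largest fold changes were in genes close to silent in WT. The transcribed pseudogene AT2G35570 had 0, 2 and 0 counts in the WT libraries and 544 in all in the libraries labelled hd2b hd2c, a ratio of 248 (exact 95% interval 68.4 to 2050, counting error only). AT2G04050, which encodes an efflux protein of the MATE family, stood at 0, 0.287 and 0.0354 CPM in WT and at 4.84, 5.95 and 5.197 CPM in the libraries labelled hd2b hd2c (6.04, SE 0.667, adjusted p 9.24e-06). AT5G35935.1, a feature that the reference does not annotate, stood at 1.95, 1.84 and 1.45 CPM against 21.9, 23.9 and 21.4 CPM (3.67, SE 0.294, adjusted p 7.87e-08). These 3 features were named by a rule that required groups without overlap, and all 3 were also called higher after heat. By smallest adjusted p the first gene was AT1G65370, of the TRAF-like family, with 40.9, 41.7 and 43.1 CPM in WT and 117, 117 and 121 CPM in the libraries labelled hd2b hd2c (1.497, SE 0.107, adjusted p 1.26e-08). All 3 labelled libraries were more than 2-fold above all 3 WT libraries.

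Several genes had no count at all in WT and were called higher; they fall below the level that the naming rule required and were chosen after their values were seen. NDB4, which encodes an NAD(P)H dehydrogenase, was at least 26.2-fold higher in the libraries labelled hd2b hd2c, taken against a floor of 3 counts over the WT group. AT4G05380, annotated as a nucleoside triphosphate hydrolase, was at least 28.9-fold higher on the same floor, and AT5G55270, which encodes a protein of unknown function, at least 20.7-fold higher. AOX1C, an alternative oxidase of mitochondria, stood at 0.106 to 0.287 CPM in WT and at 0.931 to 1.73 CPM in the libraries labelled hd2b hd2c (2.94, SE 0.642, adjusted p 0.011), a call that was lost without WT replicate 1 or 3 or hd2b hd2c replicate 2 or 3 (highest adjusted p 0.0756).

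The largest decrease was in AT3G01345, annotated as an uncharacterized protein. It stood at 206, 183 and 231 CPM in WT and at 1.97, 2.23 and 1.58 CPM in the libraries labelled hd2b hd2c, so every WT library was far above every labelled one. The log2 fold change was −6.74 (SE 0.204, adjusted p 2.54e-16), and after heat it was −6.87 (SE 0.273). AT1G27565, also uncharacterized and chosen after its values were seen, had 199 counts over the WT libraries and 3 over the libraries labelled hd2b hd2c, a ratio of 72.7 (exact 95% interval 24.5 to 355). AT5G62420, an NAD(P)-linked oxidoreductase chosen in the same way, had 52 counts in WT and 0 in the libraries labelled hd2b hd2c, at least 19.0-fold lower on the same kind of floor.

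FLC (AT5G10140), the MADS-box repressor of flowering, stood at 12.8, 10.2 and 14.68 CPM in WT and at 2.69, 4.01 and 3.06 CPM in the libraries labelled hd2b hd2c. The lowest WT value was more than the highest labelled value, and FLC fell by 1.95 (SE 0.202, adjusted p 2.87e-06). ASN1, a glutamine-dependent asparagine synthetase that is induced in the dark and repressed by sugar, stood at 6.38, 6.42 and 6.40 CPM in WT and at 1.79, 2.1 and 2.07 CPM in the libraries labelled hd2b hd2c (−1.68, SE 0.161, adjusted p 9.71e-07). AT2G05510, of the glycine-rich protein family, stood at 23.51, 28.3 and 24.5 CPM against 4.23, 7.73 and 6.99 CPM (−2.0, SE 0.234, adjusted p 2.91e-05). AT4G11320, a papain-type cysteine protease, stood at 244, 210 and 290 CPM in WT and at 120, 139 and 111 CPM in the libraries labelled hd2b hd2c (−1.01, SE 0.125, adjusted p 3.89e-05). RHS13, named for its root hair specific expression, stood at 9.75 to 10.9 CPM in WT and 2.32 to 4.39 CPM in the libraries labelled hd2b hd2c (−1.71, SE 0.302, adjusted p 0.00187).

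**Figure D3:**
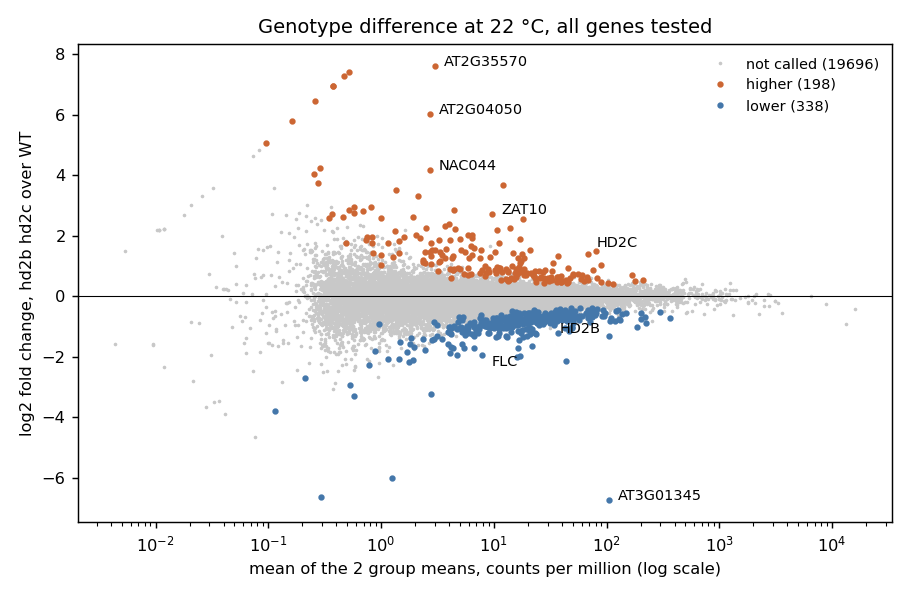
Log2 fold change of every gene tested, libraries labelled hd2b hd2c over WT at 22 °C, against its mean level in CPM (log scale). The 198 genes called higher and 338 called lower are coloured, with AT2G35570 at 7.62 and AT3G01345 at −6.74 the farthest from 0 among the labelled genes.

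The next genes have long transcripts and were named by the size of their decrease or looked up after their values were seen. NET1B, a protein that links actin filaments to membranes, stood at 22.9, 33.7 and 19.1 CPM in WT and at 8.85, 7.45 and 6.96 CPM in the libraries labelled hd2b hd2c (−1.70, SE 0.21, adjusted p 4.13e-05). The other NET1 genes, looked up after NET1B had been seen, were also called lower, NET1D by −1.65, NET1C by −1.40 and NET1A by −1.32. WT replicate 2 was the highest library for all 4. With the length and purine trend removed, NET1B (−0.93, adjusted p 0.000825) and NET1D (−0.88, adjusted p 0.006) were still called, and NET1A (−0.62, adjusted p 0.173) and NET1C (−0.75, adjusted p 0.355) were not. NET1A lost its call without WT replicate 2 (adjusted p 0.0591). NET1C lost its call without any of the 6 libraries (adjusted p 0.0506 to 0.286, highest without WT replicate 2). AT2G32240, annotated as an early endosome antigen, stood at 24.6, 40.1 and 17.72 CPM against 8.74, 6.94 and 5.07 CPM (−1.98, SE 0.328, adjusted p 0.00324). PMI15, a locus of chloroplast movement that the reference lists as a pseudogene, stood at 4.28 to 8.77 CPM in WT and 1.22 to 2.1 CPM in the libraries labelled hd2b hd2c (−1.88, SE 0.369, adjusted p 0.00495), with an adjusted p of 0.0673 without WT replicate 2. Of 5 further long and purine-rich genes chosen after their values were seen, WEB1, also of chloroplast movement, fell by 1.36 (SE 0.194, adjusted p 0.000229) and by 0.75 with the trend removed (adjusted p 0.0102). The other 4 were called lower but not with the trend removed. AT1G65010 went from −1.20 to −0.44 (adjusted p 0.0889), AT5G16730 from −1.12 to −0.51 (0.223), AT5G41140 from −1.17 to −0.54 (0.223) and AT5G40450 from −1.32 to −0.09 (0.853). AT5G41140 also lost its call without WT replicate 2 or hd2b hd2c replicate 1 or 2 (highest adjusted p 0.141).

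Genes of the rapid response to touch and wounding were higher as a group. Of 22 tested members, 13 were called higher, 0 lower and 9 not called, beside 0.979% called higher over all genes, and the median log2 fold change was 1.22 beside 0. All 22 values were positive, and 16 members had no overlap between the groups. These genes rise within minutes of mechanical or cold stimulation, and their summed level was 118 to 139 CPM in WT and 192, 256 and 321 CPM in replicates 1 to 3 of the libraries labelled hd2b hd2c. This list was drawn up with earlier results of these libraries known, so its direction is not independent evidence.

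ZAT10, a zinc-finger repressor of stress genes, stood at 2.24, 2.18 and 3.11 CPM in WT and at 11.3, 16.1 and 22.8 CPM in the libraries labelled hd2b hd2c. The groups were far apart and replicate 3 was highest in both (2.73, SE 0.294, adjusted p 0.000178). DIC2, a mitochondrial dicarboxylate carrier, stood at 3.53, 2.52 and 5.27 CPM against 13.5, 19.9 and 19.7 CPM (2.21, SE 0.226, adjusted p 2.48e-06). ERF6, an ethylene response factor, stood at 3.51, 2.47 and 3.93 CPM against 7.45, 10.1 and 12.7 CPM (1.59, SE 0.227, adjusted p 0.000319). ERF104 (0.76), ERF5 (1.27), ERF13 (1.78), the calmodulin-like TCH2 (0.87), the cell wall enzyme TCH4 (1.41) and the zinc-finger genes SZF1 (1.26) and CZF1 (0.58) were called too, as were CBF1, CBF2 and CBF3, which are described further on. Without 1 or another library the calls of ERF5, ERF13, TCH2, TCH4, CZF1 and CBF3 were lost (highest adjusted p 0.112, 0.129, 0.111, 0.097, 0.0979 and 0.1).

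AT5G51190 and CAF1a are outside that list and were named among the 12 largest increases, a rule that required groups without overlap. AT5G51190, an AP2/ERF-type DNA-binding protein, stood at 0.764, 0.516 and 1.80 CPM in WT and at 6.06, 8.12 and 9.13 CPM in the libraries labelled hd2b hd2c (2.87, SE 0.28, adjusted p 1.28e-06). CAF1a, a deadenylase subunit that shortens poly(A) tails, stood at 3.03, 5.16 and 7.68 CPM against 25.4, 34.2 and 32.1 CPM (2.55, SE 0.346, adjusted p 0.00159). AT4G27280, a calcium-binding EF-hand protein chosen after its values were seen, stood at 6.01, 5.73 and 9.84 CPM against 21.4, 28.2 and 31.7 CPM (1.90, SE 0.216, adjusted p 5.7e-05). In each of the 3, WT replicate 3 was the highest WT library.

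WRKY40, MYB15, BAP1, WRKY18, TCH3, CML37, CML38, RAV1 and ZAT12 were the members not called, and the largest of their log2 fold changes was that of MYB15 at 2.75 (SE 1.03, adjusted p 0.193). WRKY40, a repressor of defence genes, stood at 0.752, 1.94 and 5.23 CPM in the libraries labelled hd2b hd2c, which shows how far those 3 libraries could differ from each other (adjusted p 0.0775). Between 9 and 15 members were called when 1 of the 6 libraries was left out, and 12 with the length and purine trend removed, when TCH4 was not (1.35, adjusted p 0.0726).

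**Figure D4:**
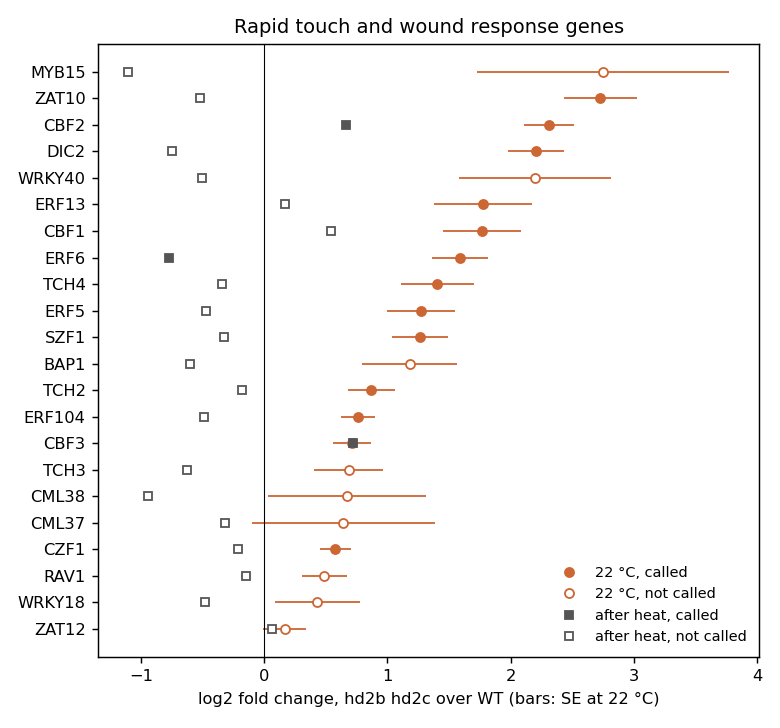
Log2 fold changes of the 22 tested rapid touch and wound response genes, libraries labelled hd2b hd2c over WT, at 22 °C (circles, bars are SE) and after heat (squares). All 22 circles lie above 0, 13 of them called, while 17 of the 22 squares lie below 0.

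The 3 CBF genes, which encode the transcription factors that switch on cold-response genes, lie next to each other on chromosome 4 and were all called higher. CBF2 stood at 0.975, 1.26 and 1.52 CPM in WT and at 5.27, 6.72 and 6.43 CPM in the libraries labelled hd2b hd2c (2.31, SE 0.204, adjusted p 2.59e-07). CBF1 stood at 0.923 to 1.73 CPM against 4.11 to 4.48 CPM (1.76, SE 0.316, adjusted p 0.0024). CBF3 stood at 3.85 to 4.95 CPM against 6.40 to 7.89 CPM (0.71, SE 0.155, adjusted p 0.011), with an adjusted p of 0.1 without WT replicate 1 and a lost call also without hd2b hd2c replicate 2. The CBF genes are close copies of each other, so reads may be shared among them.

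Among 13 tested cold and dehydration proteins, 4 were called higher and 0 lower, beside 0.979% called higher over all genes, with a median of 0.30. COR15A, a chloroplast protein that protects membranes in the cold, stood at 45.1, 63.9 and 66.4 CPM in WT and at 156, 118 and 88.5 CPM in the libraries labelled hd2b hd2c. The groups did not overlap but the labelled libraries spread widely, and COR15A rose by 1.05 (SE 0.168, adjusted p 0.000915). KIN1, a small cold-induced protein, stood at 2.14, 2.12 and 4.53 CPM against 8.28, 8.78 and 7.64 CPM (1.48, SE 0.242, adjusted p 0.00107). COR15B (0.64, adjusted p 0.0127) and RD22 (0.52, adjusted p 0.0379) were called as well. The dehydrin genes COR47 (−0.44), LTI30 (−0.65), ERD10 (−0.14) and ERD14 (−0.31) had negative values and were not called. With 1 library left out, 2 to 4 members were called. COR15B lost its call without WT replicate 1 or hd2b hd2c replicate 1 (highest adjusted p 0.141), and RD22 lost it without any of the 6 (highest 0.286) and with the length and purine trend removed (0.0553).

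Of 21 tested genes of abscisic acid synthesis and signalling, 4 were called higher and 0 lower, beside the same 0.979% over all genes, and the median was 0.01. NCED3, the rate-limiting enzyme of stress-induced abscisic acid synthesis, stood at 3.08, 3.27 and 4.21 CPM in WT and at 7.31, 7.48 and 4.92 CPM in the libraries labelled hd2b hd2c (0.90, SE 0.179, adjusted p 0.00574). The other 3 encode type 2C protein phosphatases, which block the pathway in the absence of the hormone and are themselves induced by it. AHG3 stood at 26.0 to 35.6 CPM against 45.2 to 53.3 CPM (0.67, SE 0.127, adjusted p 0.00343). HAI1 stood at 1.78 to 2.27 CPM against 3.19 to 5.66 CPM (1.15, SE 0.234, adjusted p 0.00657). ABI1 stood at 34.8 to 41.1 CPM against 49.0 to 56.1 CPM (0.47, SE 0.112, adjusted p 0.0197). All 4 were also called higher after heat. NCED3 lost its call without WT replicate 1 (adjusted p 0.0612) and ABI1 without WT replicate 1 or 2 or hd2b hd2c replicate 1 or 2 (highest adjusted p 0.166).

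Single members of other hormone and defence lists rose, beside 0.979% called higher over all genes. WRKY70, a transcription factor that acts downstream of salicylic acid, was the only called gene among 19 tested of that list, with 0.844, 1.61 and 1.49 CPM in WT and 5.66, 6.33 and 7.86 CPM in the libraries labelled hd2b hd2c (2.38, SE 0.281, adjusted p 2.32e-05). ACS6, which makes the precursor of ethylene, was the only one called of 17 ethylene genes, with 9.96, 11.2 and 11.3 CPM against 19.6, 30.8 and 43.3 CPM (1.54, SE 0.195, adjusted p 0.000117). PCC1, a small membrane protein of pathogen response, is outside these lists and was named among the 12 largest increases. It stood at 2.16, 1.15 and 1.38 CPM against 11.03, 7.32 and 4.15 CPM (2.22, SE 0.374, adjusted p 0.0013). Of 27 tested auxin genes IAA29 alone was called (0.79, SE 0.185, adjusted p 0.0199), and of 13 gibberellin and brassinosteroid genes GA20OX1, a gibberellin synthesis enzyme, alone (1.31, SE 0.339, adjusted p 0.0352). IAA29 lost its call without any library other than WT replicate 2 (highest adjusted p 0.155), and GA20OX1 without any of the 6 (highest 0.184) and with the length and purine trend removed (0.0598). None of 21 jasmonate genes was called.

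Rows of 3 or more neighbouring tested genes called in the same direction were looked for. The shared direction within a row is fixed by that rule. The CBF genes above form such a row, and so do HD2C, AT5G03750 and ATCSLA09. A row of 3 on chromosome 1, called higher, encodes proteins with a TIR domain, a module of plant immune receptors. AT1G72910 stood at 2.69, 2.12 and 3.04 CPM in WT and at 7.13, 10.3 and 13.0 CPM in the libraries labelled hd2b hd2c (1.94, SE 0.255, adjusted p 8.38e-05). AT1G72920 (1.87, SE 0.324, adjusted p 0.00161) and TIR (0.96, SE 0.184, adjusted p 0.00399) followed, and groups did not overlap for any of the 3. Related sequences may share reads here. Another row of 3 on chromosome 1 held the lipase-like genes AT1G29660 (0.52, adjusted p 0.00592) and AT1G29670 (0.42, adjusted p 0.0451) and the gene AT1G29680, which had 0 counts in WT and was at least 14.9-fold higher in the libraries labelled hd2b hd2c. AT1G29670 lost its call without any library except hd2b hd2c replicate 2 (highest adjusted p 0.251) and with the length and purine trend removed (0.0826), and AT1G29680 lost it without WT replicate 1 or hd2b hd2c replicate 3 (highest 0.0612).

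Of 15 tested DNA damage response genes 2 were called, both higher, beside 0.979% called higher over all genes. NAC044, a transcription factor induced by DNA damage that slows the cell cycle, stood at 0.211, 0.344 and 0.318 CPM in WT and at 4.51, 5.95 and 4.98 CPM in the libraries labelled hd2b hd2c (4.18, SE 0.456, adjusted p 6.89e-06). GMI1, an SMC-like protein of homologous recombination that is induced by irradiation, stood at 3.24, 2.12 and 1.42 CPM against 8.10, 10.4 and 9.78 CPM (2.03, SE 0.275, adjusted p 0.000117). Both kept the call without any of the 6 libraries and were also called higher after heat. The master regulator SOG1 was at 7.36 to 8.48 CPM in WT and 6.59 to 7.99 CPM in the libraries labelled hd2b hd2c and was not called (−0.12, adjusted p 0.861). BRCA1 was not called (0.56, adjusted p 0.254), and the cell cycle inhibitors SMR5 and SMR7 were below 1 CPM in all 6 libraries. None of 31 tested cell cycle and replication genes was called.

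For ribosome biogenesis, the process of the nucleolus, 2 of 22 tested genes were called, both higher, beside 0.979% called higher over all genes. The median of the 22 was 0.03. NUC2, a nucleolin that binds ribosomal RNA genes, stood at 1.87, 1.55 and 1.77 CPM in WT and at 4.91, 4.17 and 5.51 CPM in the libraries labelled hd2b hd2c (1.48, SE 0.276, adjusted p 0.00313). FIB2, a fibrillarin that methylates ribosomal RNA, stood at 46.8 to 47.9 CPM against 65.7 to 76.3 CPM (0.58, SE 0.12, adjusted p 0.00789), with an adjusted p of 0.0516 without WT replicate 2. Both were also called higher after heat.

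Part of the chaperone genes fell before any heat was given. Of 23 tested genes of the HSP70, HSP90 and HSP100 families and their co-chaperones, 5 were called lower and 0 higher, beside 1.67% called lower over all genes, and the median was −0.39 with 21 negative values. BAG6, a co-chaperone of the BAG family, stood at 8.17, 9.52 and 5.63 CPM in WT and at 2.83, 3.37 and 1.61 CPM in the libraries labelled hd2b hd2c (−1.57, SE 0.236, adjusted p 0.000496). ROF2, a heat-induced prolyl isomerase that binds HSP90, stood at 2.50, 2.70 and 2.87 CPM against 0.967, 0.955 and 1.15 CPM (−1.38, SE 0.217, adjusted p 0.000658). HSP90.1, the heat-inducible HSP90 of the cytosol, stood at 15.3, 19.8 and 19.6 CPM against 11.3, 11.5 and 8.79 CPM (−0.79, SE 0.176, adjusted p 0.0127).

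HSP70B (−0.85, adjusted p 0.0152) and HSP90.4 (−0.55, adjusted p 0.0435) were the other 2 called. The groups overlapped for HSP90.4, which is close in sequence to other HSP90 genes and may share reads with them. HSC70-1, the abundant constitutive HSP70, was not called (−0.23, adjusted p 0.687). The members have long and purine-rich transcripts, with medians of 2576 bases and 54.4% purine. With the trend over both removed, the median was −0.15, BAG6 (−1.11, adjusted p 0.00689) and ROF2 (−1.01, adjusted p 0.00169) were still called lower, HSP70B (−0.61, adjusted p 0.0561), HSP90.1 (−0.35, adjusted p 0.327) and HSP90.4 (−0.33, adjusted p 0.416) were not, and HSP90.5 of the plastid was called higher (0.39, adjusted p 0.0375). Between 2 and 5 members were called lower when 1 of the 6 libraries was left out, with 2 without WT replicate 2 or without hd2b hd2c replicate 3. HSP90.1 lost the call without 3 of the libraries taken singly, HSP70B without 4 and HSP90.4 without 5 (highest adjusted p 0.0979, 0.128 and 0.385, each without WT replicate 2). With dropped entries kept by locus, 6 of 26 were called lower.

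Of 20 tested heat stress transcription factors and regulators, 2 were called, both lower, beside 1.67% called lower over all genes. The median was −0.16. HSFA7A, a heat shock factor that is itself induced by heat, stood at 5.59, 6.08 and 4.74 CPM in WT and at 2.22, 2.99 and 2.82 CPM in the libraries labelled hd2b hd2c (−1.02, SE 0.161, adjusted p 0.000699). DREB2A, a drought and heat regulator, stood at 5.91 to 6.93 CPM against 3.41 to 4.73 CPM (−0.70, SE 0.158, adjusted p 0.0143). DREB2A lost its call without WT replicate 1 or 2 or hd2b hd2c replicate 2 or 3 (highest adjusted p 0.122) and with the trend removed (0.0912). In the unfolded protein response of the endoplasmic reticulum, the HSP70-type chaperones BIP1 (−0.54, adjusted p 0.015) and BIP2 (−0.59, adjusted p 0.0275) fell. The transcription factor NAC103 rose from 0.818 ± 0.28 to 3.26 ± 0.238 CPM (mean ± SD, n = 3, log2 fold change 2.03, SE 0.39, adjusted p 0.00406). Of 15 tested genes 1 was called higher and 2 lower, beside 0.979% and 1.67% over all genes, and 12 were not called. BIP1 and BIP2 are nearly identical in sequence, so reads may be shared, and neither was called with the trend removed (adjusted p 0.534 and 0.103) or without WT replicate 2 (0.147 and 0.212). BIP1 also lost its call without 2 other libraries taken singly and BIP2 without 4.

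Part of the circadian clock genes fell. Of 19 tested, 5 were called lower and 0 higher, beside 1.67% called lower over all genes, with a median of −0.36 and 17 negative values. PRR7, a repressor of the morning genes, stood at 37.3, 37.0 and 34.6 CPM in WT and at 18.9, 20.9 and 23.4 CPM in the libraries labelled hd2b hd2c (−0.79, SE 0.201, adjusted p 0.0405). LNK2, a coactivator of clock genes, stood at 29.6, 29.3 and 24.5 CPM against 18.1, 19.2 and 21.0 CPM (−0.52, SE 0.124, adjusted p 0.0216), and its relative LNK1 at 8.66 to 10.3 CPM against 5.38 to 6.41 CPM (−0.62, SE 0.159, adjusted p 0.0352). GI, which links the clock to flowering, stood at 53.4, 55.5 and 56.9 CPM against 39.1, 41.8 and 45.04 CPM (−0.40, SE 0.102, adjusted p 0.0353). PRR9 was below 0.5 CPM in all 6 libraries (−2.71, SE 0.681, adjusted p 0.029). The groups did not overlap for these 5 genes. The morning genes CCA1 (−0.36, adjusted p 0.694) and LHY (−0.43, adjusted p 0.714) were not called. The labels do not give the hour of harvest. With 1 of the 6 libraries left out, 0 to 2 members were called, and each of the 5 lost its call without at least 4 of the libraries taken singly. With the length and purine trend removed PRR7, PRR9 and LNK2 were called, and GI (−0.34, adjusted p 0.113) and LNK1 (−0.45, adjusted p 0.0621) were not.

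**Figure D5:**
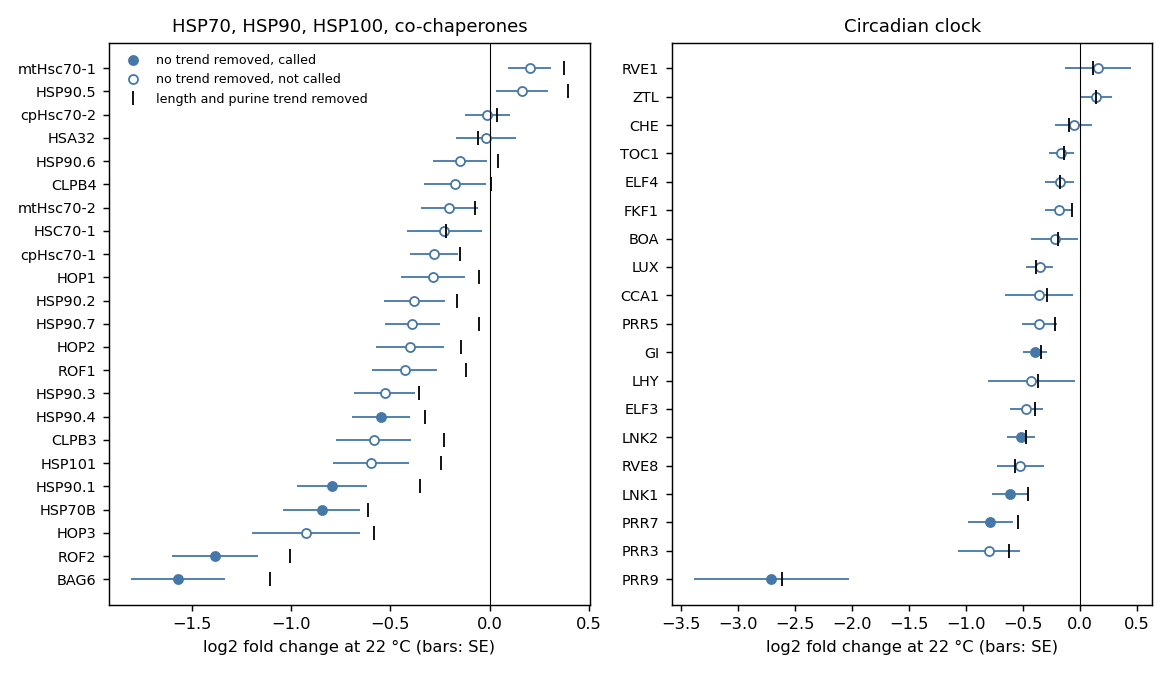
Log2 fold changes at 22 °C of the 23 chaperone genes (left) and 19 clock genes (right), libraries labelled hd2b hd2c over WT; circles with SE bars are the values given in the text, filled where called, and black ticks the same with the length and purine trend removed. Removing the trend moves the median from −0.39 to −0.15 in the chaperones and from −0.36 to −0.34 in the clock genes.

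Of 20 tested flowering regulators 2 were called higher and 1 lower, beside 0.979% and 1.67% over all genes. Beside the fall of FLC, TEM2, a repressor of the flowering signal FT, stood at 20.2, 17.3 and 21.2 CPM in WT and at 25.7, 35.2 and 42.3 CPM in the libraries labelled hd2b hd2c (0.81, SE 0.152, adjusted p 0.00325). Its paralog TEM1 stood at 33.0 to 44.1 CPM against 58.2 to 67.0 CPM (0.71, SE 0.173, adjusted p 0.0261), a call lost without any library except WT replicate 3 (highest adjusted p 0.201).

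Several genes that act on chromatin, outside the HD2 family, were called lower. None of them kept its call with the length and purine trend removed, other than INO80. The counts below stand beside 1.67% called lower over all genes. That share was 7.13% in the longest decile and 7.82% in the most purine-rich decile. None of 10 tested RPD3-type and sirtuin deacetylases was called, at a median of 0.10, and none of 14 Polycomb and Trithorax genes. Of 11 histone acetyltransferases HAF1, a TFIID-associated acetyltransferase, was called, with 24.9, 38.6 and 24.2 CPM in WT and 16.0, 13.4 and 12.3 CPM in the libraries labelled hd2b hd2c (−1.07, SE 0.176, adjusted p 0.00108). Of 26 genes of RNA-directed DNA methylation, NRPE1, the largest subunit of RNA polymerase V, stood at 15.02 to 16.3 CPM against 7.80 to 11.3 CPM (−0.69, SE 0.175, adjusted p 0.0319), and KTF1, which joins that polymerase to Argonaute, at 29.4 to 39.9 CPM against 7.46 to 18.4 CPM (−1.25, SE 0.291, adjusted p 0.0286). Of 19 genes of DNA methylation maintenance and heterochromatin, 3 fell, namely the DNA glycosylase DME from 56.6 ± 10.8 to 32.0 ± 2.40 CPM (−0.82, adjusted p 0.00156), the histone demethylase IBM1 from 14.3 ± 1.73 to 8.08 ± 1.07 CPM (−0.82, adjusted p 0.0122) and the methyltransferase CMT2 from 24.1 ± 3.03 to 16.4 ± 0.158 CPM (−0.55, adjusted p 0.0407; mean ± SD, n = 3). DCL1, which cuts microRNA precursors, fell by 0.61 (adjusted p 0.0195) and was the only one called of 20 small RNA genes. INO80, a chromatin remodelling ATPase that is in none of these lists and was chosen after its values were seen, stood at 29.2, 33.7 and 21.69 CPM in WT and at 12.1, 13.8 and 13.4 CPM in the libraries labelled hd2b hd2c (−1.10, SE 0.175, adjusted p 0.000711). It kept the call without each of the 6 libraries and with the trend removed (−0.73, adjusted p 0.00561).

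The 7 called members of these lists have long transcripts, and none was called with the length and purine trend removed (HAF1 −0.43, adjusted p 0.186; NRPE1 −0.34, 0.447; KTF1 −0.44, 0.365; DME −0.34, 0.23; IBM1 −0.33, 0.409; CMT2 −0.24, 0.533; DCL1 −0.16, 0.663). The calls of NRPE1, KTF1, IBM1, CMT2 and DCL1 were also lost without WT replicate 2 and without at least 2 of the other libraries taken singly (highest adjusted p without any 1 library 0.202, 0.137, 0.111, 0.286 and 0.141), while DME and HAF1 kept theirs without each of the 6.

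Of 143 tested features whose identifier carries a numbered suffix, 3 were called higher and 5 lower, beside 0.979% and 1.67% over all genes. The median was −0.02. AT5G35935.1 has been given above. AT3G42806.1 stood at 9.75 to 11.5 CPM in WT and at 19.6 to 31.0 CPM in the libraries labelled hd2b hd2c (1.26, SE 0.203, adjusted p 0.000915), and AT3G42658.1 at 2.32 to 3.78 CPM against 7.67 to 10.6 CPM (1.67, SE 0.28, adjusted p 0.00123). Both were chosen after their values were seen. Of the 5 lower, AT2G07080.1 was the most abundant, at 210 to 259 CPM against 161 to 166 CPM (−0.57, SE 0.131, adjusted p 0.0166).

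Marker lists of cell types were read because seedlings hold many cell types, and in such samples fewer cells of a type and less RNA per cell cannot be told apart. The summed level of 11 root hair genes was 34.5 to 41.4 CPM in WT and 17.84 to 24.2 CPM in the libraries labelled hd2b hd2c, and all 11 log2 fold changes were negative, with a median of −0.81. XTH14, a cell wall enzyme of root hairs, was the only one of them called (−0.9996, SE 0.244, adjusted p 0.024), and that call was lost without any of the 6 libraries (highest adjusted p 0.165). RHS13, not in this list, has been given above. The sum of 14 other root genes was 1056 to 1150 CPM in WT and 793 to 930 CPM in the libraries labelled hd2b hd2c, with none called. Their median log2 fold change was 0.13, with 9 values positive and 5 negative, so the lower sum does not describe most of these genes. The sum of 41 photosystem, antenna and Rubisco genes was 81120 to 93600 CPM against 63170 to 85310 CPM, and none was called. Of 8 shoot meristem and epidermis genes, with sums of 603 to 651 CPM against 643 to 738 CPM, the wax synthesis gene CER1 was called (0.59, SE 0.138, adjusted p 0.0171), a call lost without any library except WT replicate 3 (highest adjusted p 0.133). None of the stomatal lineage (48.2 to 57.9 CPM over both groups), vascular (89.1 to 99.0) and seed maturation genes (10.95 to 13.5) was called. The single calls of XTH14 and CER1 stand beside 1.67% called lower and 0.979% called higher over all genes. The part of root hair content in the genes that fell was not tested.

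Neighbours of the targeted genes were read in the order of the reference. Of the 5 tested genes on either side of HD2C, AT5G03750 and ATCSLA09, the next 2 on one side, were called higher. AT5G03750, annotated as a ubiquitin ligase, had 0 counts in WT and 30 in the libraries labelled hd2b hd2c, at least 9.13-fold higher, and its adjusted p was 0.0526 without WT replicate 1. ATCSLA09, a glucomannan synthase, stood at 24.4 to 27.3 CPM in WT and at 38.3 to 40.2 CPM in the libraries labelled hd2b hd2c (0.63, SE 0.132, adjusted p 0.0085), and lost the call without WT replicate 2 or 3 or hd2b hd2c replicate 2 (highest adjusted p 0.0707). On the other side, CTR1, a kinase that represses ethylene signalling, stood at 36.8 to 42.6 CPM against 43.7 to 48.0 CPM and was not called (0.19, adjusted p 0.487), nor was HSFA3 (0.46, adjusted p 0.464). After heat, CTR1 (2.63, adjusted p 6.69e-13), HSFA3 (1.91, adjusted p 0.000241) and AT5G03750 (5.03, adjusted p 0.000347) were called higher. ATCSLA09 and the other tested neighbours of HD2C were not called after heat. Beside HD2B only emb1211 was called, lower (−0.46, SE 0.112, adjusted p 0.0229), and it was not called with the trend removed (−0.19, adjusted p 0.596) or without any library except WT replicate 3 (highest 0.192).

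The genotype difference was also read in the 6 libraries after heat, where 321 genes were called higher (1.59% of genes tested) and 238 lower (1.18%), together 2.76%. Of the 198 genes called higher at 22 °C, 60 were also called higher after heat, which is 30.3% of them and 18.7% of the genes called higher after heat. Of the 338 called lower, 64 were also called lower, 18.9% of them and 26.9% of the genes called lower after heat. ERF6 was called higher at 22 °C and lower after heat, and UPL2, a ubiquitin ligase chosen here for that reversal, was called lower at 22 °C (−0.45) and higher after heat (0.57). AT3G01345, FLC, AT2G05510 and AT4G11320 were called lower at both temperatures, and HD2C, NAC044, GMI1, AT2G35570, AT5G35935.1, AT1G65370, COR15A, AHG3, NUC2 and FIB2 were called higher at both.

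Part of the touch and wound genes differed between temperatures. After heat, 2 of the 22 were called higher and 1 lower, the median was −0.41 and 17 values were negative. The interaction of genotype and heat was called for 6 of the 22, among 0.336% of all genes tested. For ZAT10 the log2 fold change was 2.73 at 22 °C and −0.53 after heat, an interaction of −3.25 (SE 0.382, adjusted p 0.00199). For DIC2 it was 2.21 and −0.75 (interaction −2.95, SE 0.336, adjusted p 6.11e-05). Of the 5 clock genes called at 22 °C, GI showed an interaction (−0.40 at 22 °C and 0.32 after heat, adjusted p 0.0273). Over the 19 clock genes the median was −0.36 at 22 °C, with 17 negative values. After heat it was 0.15, with 6 negative values, 1 gene called higher and 0 lower.

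For 18 of the 40 lists no member was called at 22 °C in either direction. Besides those given above, they cover small heat shock proteins (4 tested), cytokinin response (13), chlorophyll synthesis (15), flavonoids (15), glucosinolates and camalexin (27), phosphate starvation (14), iron (17, or 21 with 1 called lower when dropped entries are kept by locus), sulfate (11), and superoxide, peroxide and copper genes (16). The medians of these 9 lists ran from −0.20 in the iron list to 0.12 in the glucosinolate list. A p that misses the threshold does not show that these genes were the same in both groups.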

How the data were processed

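RNA-seq gene counts of 12 libraries were used as the authors deposited them, as raw counts of reads per gene. The submitters' processing notes name TAIR10, HISAT2 2.1.0 and featureCounts 2.0.3, and how strand and multimapping reads were set is not given in the sources used here. Per the labels' protocols, RNA was extracted with Trizol and made into libraries with a commercial kit. Here, edgeR 4.0.16 in R 4.3.3 was used with filterByExpr (minimum count 10, minimum total 15), TMM factors and the robust quasi-likelihood F test, two-sided. A single fit of 4 groups of 3 libraries covered all 12, without a replicate block, at a common dispersion of 0.0236, and a gene was called at an adjusted p under 0.05 (Benjamini-Hochberg over all 20232 genes). Each SE was obtained from the log2 fold change and its F statistic (size over root F).

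The members, gene lists and tests were chosen with earlier results of these data known. Of 763 list entries in 40 lists, 40 were dropped because the TAIR10.1 reference did not carry their symbol at that locus, 15 of them small heat shock proteins. A list of cytosolic ribosomal proteins matched by annotation words reached only 5 tested genes, with 0 called. No set test was run. Genes were named by a rule: among called genes with at least 5 CPM in a group and no overlap, the 12 largest fold changes and the 6 smallest adjusted p in each direction, plus HD2 genes, AGO4, up to 4 called members of each list, called members of the chromatin lists, runs of 3 or more called neighbours and 5 neighbours on each side of HD2B and HD2C. Genes outside the rule are marked in the text, or are further members of a list.

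Transcript length and purine share come from the longest TAIR10.1 transcript, found for 20070 of the genes tested, and the trend was removed by loess offsets with a span of 0.5. Gene names and neighbour order are from TAIR10.1. Its coordinates and sequences served for that order and for transcript length and purine share. Floors of 3 counts and 95% intervals cover counting error only. Deviations of same-numbered libraries of the 2 genotypes from their group means correlated at −0.078 to −0.025, so the numbers were not treated as pairs. Alternatives were other scaling factors, other filters, DESeq2 1.42.0, the 6 libraries alone, a replicate block, and each library left out.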

Additional observations from a re-analysis of the deposited data

Results flagged for a closer look

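For 19 of the 99 named genes the genotype difference differed between 22 °C and heat, beside 0.336% of all genes tested. This was read from the interaction term of the edgeR fit (adjusted p under 0.05). Values are the log2 fold change after heat minus that at 22 °C. It was negative for AT5G51190 (−3.61), ZAT10 (−3.25), CAF1a (−3.10), DIC2 (−2.95), ERF6 (−2.36), AT1G72920 (−2.26), AT2G25510 (−2.24), AT1G72910 (−1.97), WRKY70 (−1.92), CBF2 (−1.65), ACS6 (−1.46), HD2B (−1.40), TIR (−1.37), TEM2 (−1.31) and AT3G56880 (−1.16). For 14 of these 15 the gene was higher at 22 °C in the libraries labelled hd2b hd2c, and HD2B was lower at both temperatures. Of the 99 named genes 80 were called at 22 °C, and naming by that difference favours interaction values of the opposite sign. The split of signs is therefore not independent evidence. The interaction value was positive for CTR1 (2.43), ASN1 (1.296), HSFA7A (1.01) and GI (0.71). ASN1, HSFA7A and GI were lower at 22 °C, and CTR1 was not called there. One of the heat libraries, hd2b hd2c replicate 2, stood apart with 7737285 counts and 11.2% ribosomal RNA, and its part in these differences was not tested. With 3 libraries in a group, single libraries were not tested as outliers.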

How the results depend on the processing

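Main counts were 198 genes higher and 338 lower, 124 of them called in the same direction after heat. Scaled by library totals alone they were 74, 28 and 29, and HD2B was not called (−0.69, adjusted p 0.396). With no filter on low counts 301 rose and 193 were shared, and DESeq2 shared 189. The 6 libraries at 22 °C alone gave 592 and 1063. Replicate numbers did not pair the libraries; a replicate block gave 160 and 264 over 12 libraries and 470 and 956 over 6. Leaving out 1 library gave 101 to 408 higher, 106 to 653 lower and 71 to 231 shared, the highest values without hd2b hd2c heat replicate 2 (408, 653 and 231) and the lowest count of lower genes without WT replicate 2. Removing the purine trend gave 216 lower, and length with purine 197, where calls split 50.3% higher against 36.9% as reported; library totals split them 72.5%. No named gene changed sign past the threshold. Of 80 named genes called, 46 were called without each of the 6 libraries in turn, and 44 of these also with the length and purine trend removed. Named genes were partly picked by size and adjusted p. Over all called genes, 76 of 198 higher and 81 of 338 lower kept the call without each of the 6 libraries. Genes near 1 CPM rest on few counts, which limits their fold changes. Promoter sequences were not used here.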
